A study of Ascaridia galli and Trichostrongylus colubriformis with 4 samples.

Results

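Nuclear hormone receptors, homeobox proteins and forkhead proteins were followed in the RNA of whole worms of 2 gut nematodes, *Ascaridia galli* from chickens and *Trichostrongylus colubriformis* from sheep. Members were all assembled transcripts (unigenes) whose best-hit protein name held the words nuclear hormone receptor, homeobox or forkhead in any case. They numbered 260 of 194608 unigenes. *A. galli* had 214 of 150798, made up of 115 nuclear hormone receptor, 74 homeobox and 25 forkhead unigenes. *T. colubriformis* had 46 of 43810, made up of 24, 17 and 5. The name was that of the closest database protein, and 204 of the *A. galli* members matched a protein of an ascaridid worm, while all 46 of *T. colubriformis* matched a strongylid worm.

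For each species there was 1 library of worms kept in a water-based extract of *Pottia lanceolata*, a moss, and 1 of control worms kept in distilled water, so there were 4 libraries and no replicates. Worms were taken from slaughtered hosts and exposed in dishes. The strain, sex and age of the worms, the number of worms per library, and the extract concentration and exposure behind the RNA are not known from the labels. The question was which transcripts differ between the extract and the water. In each deposited table the conditions are named A and B, and no header ties either name to the moss extract. Every difference is therefore condition B against condition A, it has no direction with respect to treatment, and A and B may stand for opposite treatments in the 2 species. No test between conditions was possible. The 95% counting intervals below are exact binomial intervals and cover counting error alone.

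Nuclear hormone receptors are transcription factors that pair a DNA-binding region of zinc fingers with a ligand-binding domain for lipids, sterols and other small molecules. The nematode *Caenorhabditis elegans* holds many more of them than insects or vertebrates. In that worm they act in fat metabolism, moulting, responses to foreign compounds and the fate of single cells. Homeobox proteins carry a homeodomain and set body position and neuron identity. Among them the Hox proteins mark positions along the body axis, and the PBX and Meis classes bind DNA together with Hox proteins. Forkhead proteins bind DNA through a winged helix, and the best known of them in worms is DAF-16, the FOXO factor held out of the nucleus by insulin signalling.

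Values are the authors' normalized counts, and ratios are log2((B + 1)/(A + 1)). The tables corresponded to 87659960 and 69118874 reads for A and B of *A. galli* and to 91182265 and 91812201 for *T. colubriformis*. The deposited scaling made 1 read worth 1.014 in A and 0.986 in B of *A. galli*, and 2 in A and 0.5 in B of *T. colubriformis*. Scaling both libraries to the same total raised all log2 ratios by 0.38 in *A. galli* and 1.99 in *T. colubriformis*, and the trimmed mean of M-values raised them by 0.14 and 1.03, so the sign of a ratio smaller than these depends on the scaling. Unigene lengths were not used here, so values are compared between conditions and not between genes. Members that reached 20 normalized counts in A or in B numbered 191 in *A. galli* and 42 in *T. colubriformis*, and a member was called higher or lower when it also differed at least 4-fold.

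The ratio depended on the number that a unigene carries in its name. In *A. galli*, the median log2 ratio was -0.94 for the 52688 unigenes numbered up to 100753 that passed the minimum and 1.37 for the 61723 with numbers above it, which run to 223475. In *T. colubriformis* it was -5.65 for the 15028 unigenes numbered up to 34722 and 2.99 for the 22363 above, which run to 102063. Both breaks were found from the ratios of all unigenes. Of the tested members, 103 were low-numbered and 88 high-numbered in *A. galli*, and 14 and 28 in *T. colubriformis*. In each family the low-numbered members had the lower median ratio. The step of the *A. galli* families was smaller than that over all unigenes, as their medians below show. Unigenes that share a best-hit protein often lay on both sides of the break. In *A. galli*, 44 best-hit proteins of these families had tested unigenes on both sides, and the low-numbered ones had the lower median ratio in 38 of them. The same held for 7739 of 8632 best-hit proteins over all annotated unigenes. What the numbering stands for, and its part in the ratios, was not tested. Each result is therefore given with the side of the break it comes from, and as a sum over the unigenes of a best-hit protein where there were several.

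**Figure D1:**
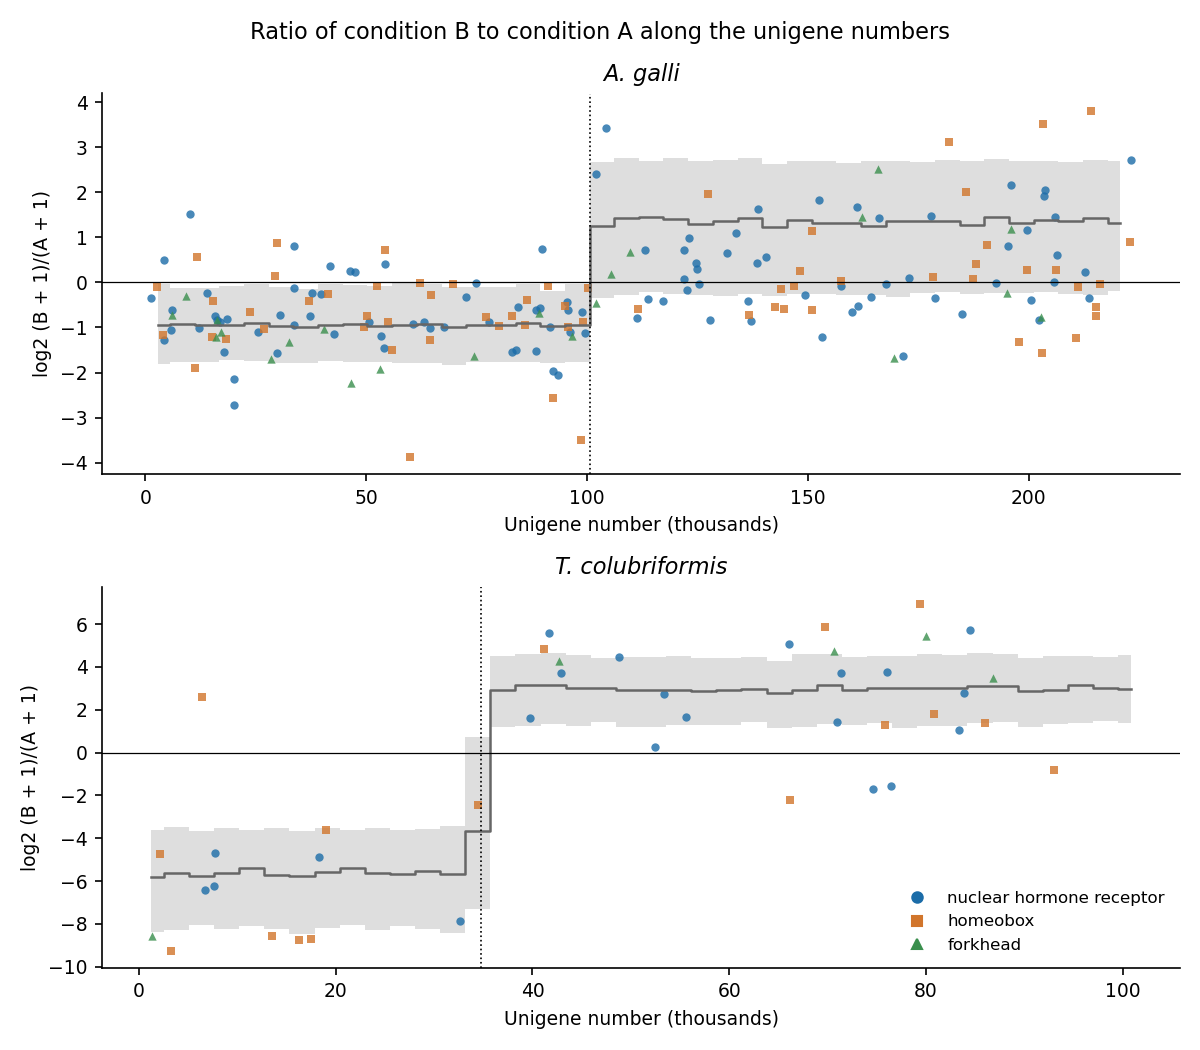
Log2 ratio of condition B to condition A (y axis) against the unigene number (x axis) for the tested members of the 3 families, by worm. The grey step line is the median of all tested unigenes in 40 bins per worm, the grey band their quartiles, and the dotted line the break at 100753 (*A. galli*) and 34722 (*T. colubriformis*); members lie mostly below 0 left of the break, and 1 low-numbered cut-like unigene of *T. colubriformis* stands above it.

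Few of the *A. galli* receptors differed 4-fold between the conditions. Of 104 tested members, 5 were at least 4-fold higher in B and 3 at least 4-fold lower, where 22.7% of all 114411 tested unigenes were higher and 9.76% were lower. Among tested unigenes with an ascaridid best hit, 2.96% were higher and 7.70% lower. As 204 of the 214 *A. galli* members had an ascaridid best hit, these shares are the closer background for each family. The receptors' median log2 ratio was -0.36 (quartiles -0.88 and 0.43), and it turned to 0.04 under total scaling. Low-numbered receptors had a median of -0.85, with 46 of 54 below 0. High-numbered receptors had a median of 0.17, with 28 of 50 above 0. Over all tested unigenes with an ascaridid best hit, the medians were -0.93 and -0.18 on the same 2 sides. Summed over the family, normalized counts were 29090 in A and 21450 in B, a log2 ratio of -0.44 that came to -0.06 under total scaling.

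The largest receptor value belonged to nhr-49, named after the *C. elegans* regulator of fatty acid use and the response to fasting. Its unigene 39720 (low-numbered, 438 residues aligned at 79.0% identity) had 4588 normalized counts in A and 3830 in B. The log2 ratio was -0.26 (95% counting interval -0.35 to -0.17), and it changed sign to 0.12 under total scaling. A further pair of unigenes matched another nhr-49 protein, and their sum was 121.7 in A and 181.4 in B. So the product name nhr-49 covered one protein slightly lower and one higher in B at the deposited scaling.

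The lowest ratio among well-covered receptors was that of nhr-1. Unigene 20157 (low-numbered) had 1746 in A and 393.5 in B, a log2 ratio of -2.15 (-2.38 to -1.93), which was past 4-fold as deposited and -1.77 under total scaling. Unigene 184890 (high-numbered) matched the same protein over the same 447 residues at the same 51.2% identity, with 667 in A and 413 in B, a log2 ratio of -0.69 (-0.95 to -0.44). Both were lower in B under each scaling, and the size of the difference depended on which of the 2 was read. Their sum was 2413 in A and 807 in B, a log2 ratio of -1.58 (-1.75 to -1.42). A like pair carried the name nhr-3, with 812 and 281 in the low-numbered unigene 88528 and 368 and 390 in the high-numbered unigene 122012, both aligned over 470 residues. The 4 unigenes of nhr-3 summed to a log2 ratio of -0.67 (-0.83 to -0.51).

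Several other receptors with large values were lower in B. The e75 name refers to an ecdysone-responsive receptor of *Drosophila*. Its low-numbered unigene 95767 had 1244 in A and 816 in B, and the high-numbered unigene 192603 had 416 and 414. The sum over its 3 unigenes gave -0.54 (-0.68 to -0.40), or -0.16 under total scaling. A unigene of another best-hit protein named E75, the high-numbered unigene 125001, had 327.5 in A and 404.3 in B (log2 ratio 0.30, -0.001 to 0.61) over an alignment of 37 residues. The nhr-40 name, which in *C. elegans* belongs to a receptor needed for normal muscle development, covered 3 unigenes of 1 best-hit protein with a sum of 1972 in A and 1118 in B and a log2 ratio of -0.82 (-0.97 to -0.67). The members of that protein were alike, since the high-numbered unigene 137083 had -0.85 and the low-numbered unigenes 18361 and 30551 had -0.82 and -0.73. The same name on other best-hit proteins went the other way. The high-numbered unigene 113163 had 245 in A and 406 in B (log2 ratio 0.73, 0.40 to 1.06), higher in B under each scaling, and the high-numbered unigene 161106 had 12.2 and 41.4. The low-numbered nhr-14 unigene 96164 had 1442 and 672, and 7 unigenes of nhr-47 summed to 1303 and 756. The sums of nhr-28, nhr-71 and nhr-35 for their largest best-hit proteins lay between -1.38 and -1.01.

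The receptors nhr-34 and nhr-22 were higher in B on both sides of the break. The 4 unigenes of nhr-34 had ratios from 0.37 to 1.52 and summed to 351 in A and 612 in B, a log2 ratio of 0.80 (0.53 to 1.08). Both unigenes of nhr-22 were higher, with 391 and 521 in the low-numbered unigene 54209 and 278 and 459 in the high-numbered unigene 121858. The name nhr-31, known in *C. elegans* for a role in the excretory cell, covered 3 best-hit proteins with summed log2 ratios of 0.36 (0.04 to 0.68), 0.43 (0.05 to 0.81) and 0.25 (-0.17 to 0.67), and the last interval held 0. Within the first of them the unigenes ranged from -0.03 to 1.92. In the second the low-numbered unigene 14020 had 154 in A and 131 in B, with an interval that held 0 and a ratio of 0.15 under total scaling, and both high-numbered unigenes were higher in B. The nhr-34, nhr-22 and nhr-31 sums stayed above 0 under both other scalings.

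Counts were few in both conditions for the unigenes named after nhr-23, nhr-8 and HR96. The moulting regulator nhr-23 was matched by 1 unigene with 10.1 in A and 17.8 in B, below the minimum. A unigene named after nhr-8, which acts in cholesterol balance and drug resistance in *C. elegans*, had 2.03 in A and 9.86 in B. The HR96 unigene, named after a *Drosophila* receptor for foreign compounds and lipids, had 46.6 in A and 15.8 in B (log2 ratio -1.50, -2.93 to -0.35). The 4 unigenes of nhr-6, needed for ovulation in *C. elegans*, summed to 313 and 251 with an interval that held 0 (-0.67 to 0.03). Of nhr-91, both low-numbered unigenes were lower in B (-1.28 and -1.09) and the high-numbered one was higher (1.84), each in the same direction under total scaling.

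**Figure D2:**
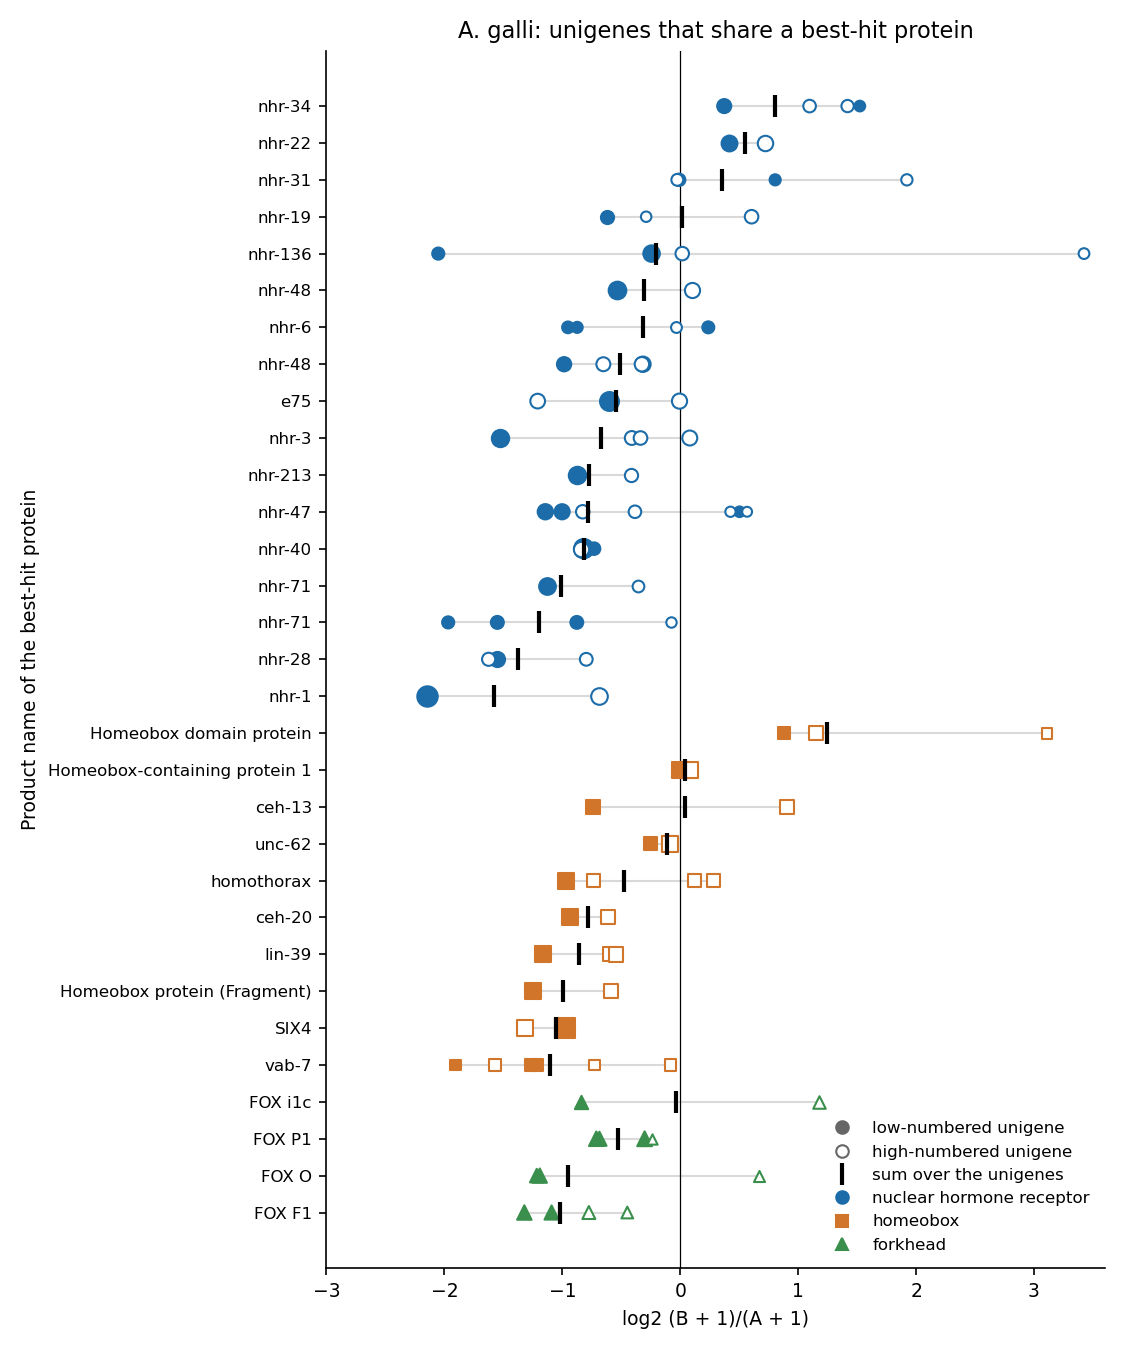
Log2 ratio of condition B to condition A (x axis) of single *A. galli* unigenes, in 1 line per best-hit protein with unigenes on both sides of the break and at least 500 normalized counts summed over both conditions (31 proteins). Filled symbols are low-numbered and open symbols high-numbered unigenes, symbol area grows with the larger value, and the bar is the sum over the unigenes; open symbols lie to the right of filled ones in most lines, as for nhr-1 (-2.15 and -0.69), and both nhr-22 and all nhr-34 unigenes lie right of 0, as they do under total scaling.

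The *A. galli* homeobox members held a median log2 ratio of -0.41 (quartiles -0.94 and 0.12), or -0.03 under total scaling. Of 65 tested, 4 were at least 4-fold higher in B and 3 at least 4-fold lower, against the same 22.7% and 9.76%. Among all tested unigenes with an ascaridid best hit, as given for the receptors, the share higher was smaller than among these members. The share lower was larger. Low-numbered members had a median of -0.74, with 32 of 36 below 0, and high-numbered members one of 0.02, with 15 of 29 above 0. The family sum was 13510 in A and 9875 in B.

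Hox members were present for several body regions. The mab-5 unigene 86367 (low-numbered), named after the Hox factor of the posterior body in *C. elegans*, had 984 in A and 746 in B, a log2 ratio of -0.40 (-0.60 to -0.20) that came to -0.02 under total scaling. The mid-body factor lin-39 was matched by 3 unigenes with the same alignment of 197 residues at 68.5% identity. Unigene 4006 (low-numbered) had 680 and 303, unigene 111507 had 245 and 162, and unigene 142633 had 337 and 231. All 3 lin-39 unigenes were lower in B under each scaling, with a summed log2 ratio of -0.86 (-1.05 to -0.67). The anterior factor ceh-13 went opposite ways in its pair of unigenes with equal alignments, from 217 to 129 in the low-numbered unigene 50235 and from 110 to 206 in the high-numbered unigene 222978. Their sums were 326.5 and 335.3, so no difference was detectable over the protein at the deposited scaling (log2 ratio 0.04, -0.28 to 0.36). Raised by the 0.38 of total scaling, the whole interval lies above 0.

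The Hox partners differed among themselves. The 4 unigenes of unc-62, the Meis-class partner, ranged from -0.26 to -0.07, each with an interval that held 0, and all 4 were above 0 under total scaling. Of ceh-20, the PBX-class partner, the pair of unigenes with equal alignments of 339 residues had 475 and 248 (low-numbered) and 394.5 and 257.4 (high-numbered). The counting intervals of their ratios, -0.94 and -0.61, overlapped. Homothorax, the *Drosophila* name of the Meis class, covered 4 unigenes with a sum of 1164 in A and 838 in B (log2 ratio -0.47, -0.66 to -0.29). Its unigenes went both ways, from -0.97 in the low-numbered unigene 80096 to 0.29 in the high-numbered unigene 199578.

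Other homeobox members included factors of neurons and of the body end. The largest homeobox value was that of a unigene named SIX4 (95682, low-numbered), with 1683 in A and 853 in B, but only 116 residues aligned, at 35.3% identity. The high-numbered unigene 197826 with the same best hit had 517 and 207, and the sum had a log2 ratio of -1.05 (-1.21 to -0.90). All 6 unigenes of vab-7, the even-skipped relative that acts in the posterior of *C. elegans*, were at or below -0.08, with a sum of 505 and 234; under total scaling the unigene nearest 0 turned to 0.29. Both unc-4 unigenes, named after a motor neuron factor, were lower in B (-0.996 and -1.24), the first with an interval that held 0. Homeobox-containing protein 1 had 568 and 602 in unigene 187303 and 563 and 562 in unigene 62083, ratios of 0.08 and 0.00 on opposite sides of the break. The product called only homeobox domain protein had a sum of 199.8 in A and 475.4 in B over 3 unigenes (log2 ratio 1.25, 0.91 to 1.60), higher in B under each scaling, and its best hit was not an ascaridid protein.

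The *A. galli* forkhead members had a median log2 ratio of -0.81 (quartiles -1.30 and -0.26), which stayed negative under total scaling at -0.40. Of 22 tested, 1 was at least 4-fold higher in B and 1 at least 4-fold lower, beside 22.7% and 9.76% of all unigenes. The closer ascaridid shares are given with the receptors. All 13 low-numbered members were below 0, with a median of -1.19, and the 9 high-numbered ones had a median of 0.19 with 5 above 0. The family sum was 4013 in A and 2252 in B, a log2 ratio of -0.83, beside -0.60 over all unigenes with an ascaridid best hit.

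FOXK1 had the largest single value, 662 in A and 203 in B in the low-numbered unigene 28466, a log2 ratio of -1.70 (-2.04 to -1.38) over an alignment at 31.8% identity. FOXO, the counterpart of DAF-16, had 305 and 133 in unigene 96560 and 228.2 and 97.6 in unigene 16063, both low-numbered, and 40.6 and 65.1 in the high-numbered unigene 109617. Its sum was 574 and 296, a log2 ratio of -0.95 (-1.25 to -0.67), or -0.57 under total scaling. The FOXO unigene 165997 (high-numbered), with another best hit, had 6.08 in A and 39.5 in B (log2 ratio 2.51, 0.94 to 5.09) and was the forkhead member called higher. The 4 unigenes of the main FOXF1 protein were all lower in B under each scaling, from -1.32 to -0.45, and summed to 897 and 443. FOXP1 summed to 1031 and 715 over 4 unigenes (-0.53, -0.73 to -0.33). Opposite directions on the 2 sides of the break were seen for i1c, with -0.84 and 1.18, and for d3, with -1.64 and 1.46, and the i1c sum was 265.7 and 258.4 (-0.04, -0.40 to 0.32).

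The 17 *A. galli* members past 4-fold were split by number and low in level. The 10 that were higher in B were 5.24% of the 191 tested, beside 22.7% of all unigenes. Among tested unigenes with an ascaridid best hit, as given for the receptors, the share higher was smaller than this 5.24%. All 10 were among the 88 high-numbered tested members. Over all high-numbered unigenes 39.0% were higher and 1.31% lower. Each of the 10 had between 21.7 and 60.2 normalized counts in B and at most 11.2 in A. The 7 that were lower were 3.66% of the 191 tested, beside 9.76% of all unigenes. The share lower among unigenes with an ascaridid best hit was also above this 3.66%. All 7 were among the 103 low-numbered tested members. Over all low-numbered unigenes 19.7% were lower and 3.64% higher. Under total scaling 10 receptors, 5 homeobox and 1 forkhead member were higher and 1, 3 and 0 lower, beside 29.0% and 5.74% of all unigenes. With the trimmed mean of M-values 6, 5 and 1 were higher and 2, 3 and 1 lower, beside 25.0% and 8.03%. Among the higher members were egl-5, the Hox factor of the tail (2.03 in A and 33.5 in B, log2 ratio 3.51, interval 1.37 to 9.43), and an engrailed-like unigene (2.03 and 41.4, log2 ratio 3.81, 1.72 to 9.72). Their value in A stands for 2 reads, so the intervals are wide. Among the lower ones were ceh-26, related to *Drosophila* Prospero (42.6 and 1.97, -3.87, -9.80 to -1.80), and ceh-10 (32.5 and 1.97, -3.49, -9.43 to -1.35). Alignments of the 10 higher members had a median of 129 residues, those of the 174 members not called one of 281. With a minimum of 100 normalized counts, 2 called members were left, the nhr-1 unigene 20157 and the nhr-136 unigene 93356 (118 and 28), both lower, and under total scaling neither was past 4-fold.

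**Figure D3:**
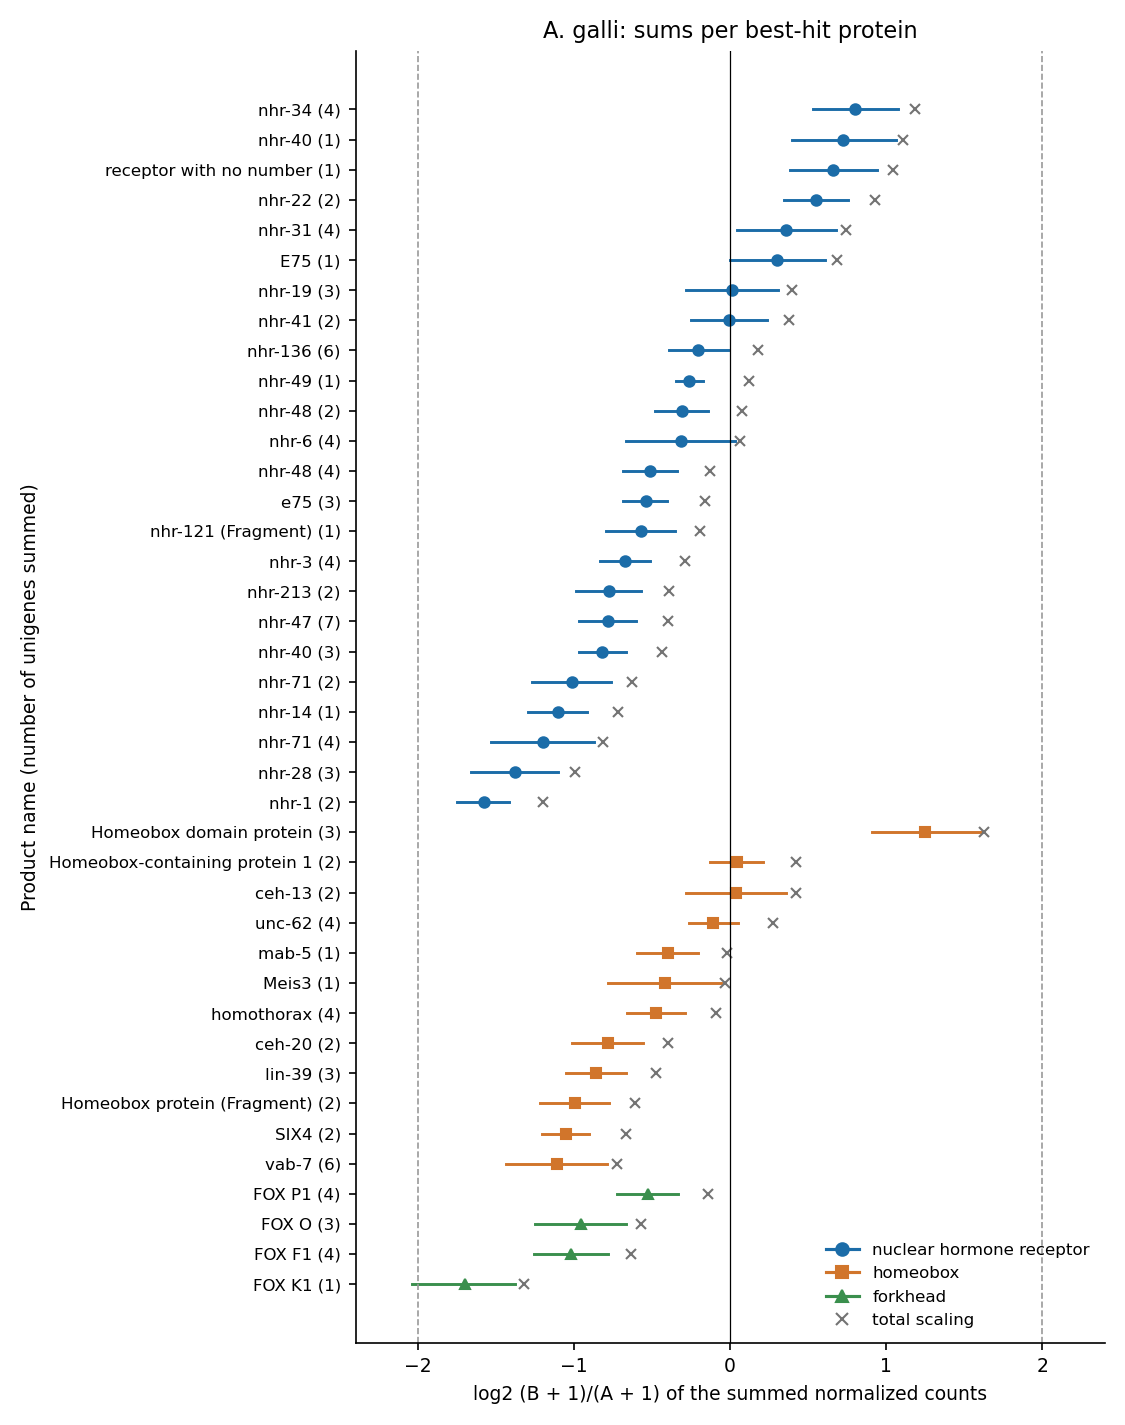
Log2 ratio of condition B to condition A (x axis) of normalized counts summed per best-hit protein in *A. galli*, for the 40 proteins with at least 300 in the higher condition. Coloured symbols use the deposited scaling with their 95% counting interval, crosses the total scaling, and dashed lines mark 4-fold; intervals of 27 proteins lie below 0 and of 6 above it, and 16 proteins are above 0 under total scaling.

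Summed per best-hit protein, no *A. galli* protein with unigenes on both sides of the break differed 4-fold. There were 26 such receptors, 15 homeobox and 6 forkhead proteins, with median log2 ratios of -0.42, -0.35 and -0.74. All 6 forkhead proteins had sums below 0, as did 18 of 26 receptors and 11 of 15 homeobox proteins. Under total scaling these counts were 5, 13 and 7. Over all 6086 tested best-hit proteins of ascaridids with unigenes on both sides, the median was -0.64 as deposited and -0.26 under total scaling. Their shares past 4-fold and below 0 are not given here. Whether the counts of these families are unusual therefore cannot be told from them.

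Differences in *T. colubriformis* were far larger in both directions, for the members as for all unigenes. Of 37391 tested unigenes, 39.7% were at least 4-fold higher in B and 41.6% at least 4-fold lower. Among low-numbered unigenes 95.2% were lower and 0.452% higher, and among high-numbered ones 66.1% were higher and 5.67% lower. The members gave 17 higher and 14 lower of 42 tested, or 40.5% and 33.3%. Of the 17 higher members 16 were high-numbered, and of the 14 lower members 13 were low-numbered. Under total scaling 15 receptors, 7 homeobox and 4 forkhead members were higher and 5, 5 and 1 lower, beside 55.7% and 28.1% of all unigenes. With the trimmed mean of M-values 13, 7 and 4 were higher and 5, 6 and 1 lower, beside 49.3% and 33.3%.

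**Figure D4:**
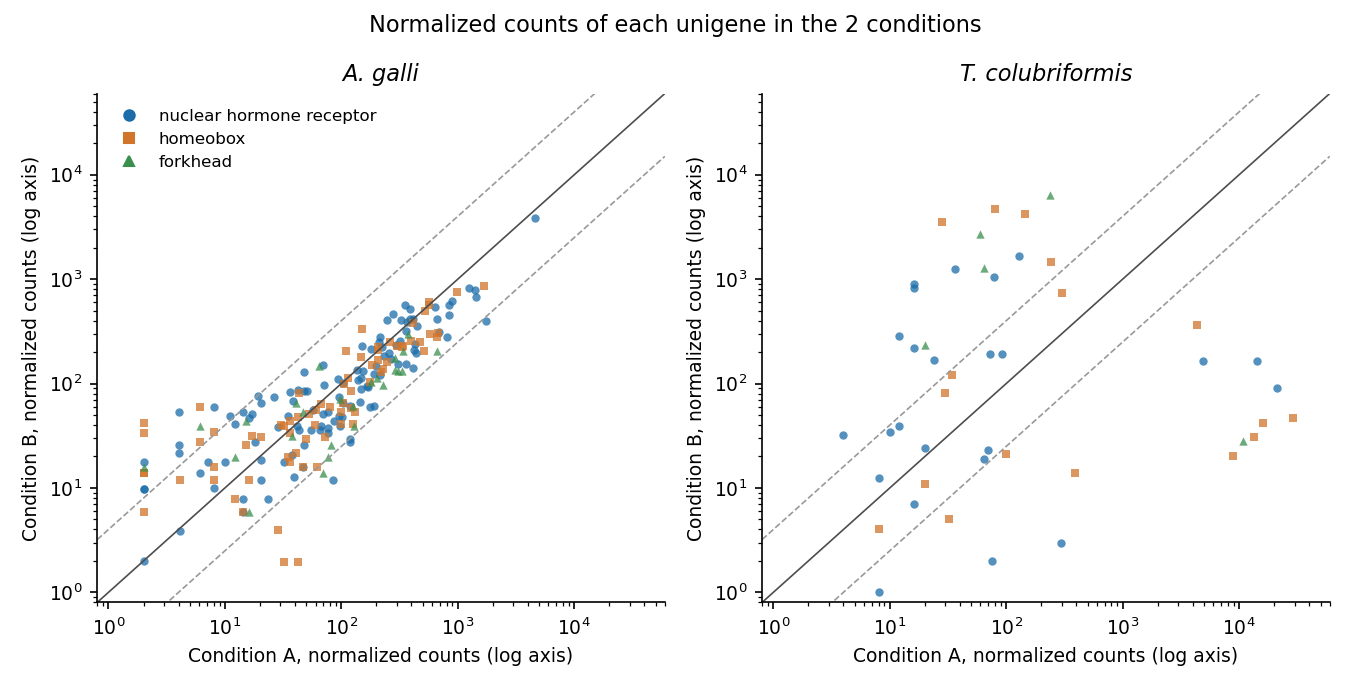
Normalized counts in condition A (x axis) and condition B (y axis) of every member, both on log axes, by worm and family. The solid line marks equal values and the dashed lines 4-fold; *A. galli* members lie along the line, while the *T. colubriformis* members split into a cloud above it and members below it that include a set with 4372 to 29018 in A and at most 360 in B, and under total scaling points would move up by 0.38 and 1.99 on the log2 scale.

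Among its receptors, 9 of 21 tested members were at least 4-fold higher in B and 5 at least 4-fold lower. All 5 low-numbered tested receptors were lower, with a median of -6.22, and the 16 high-numbered ones had a median of 2.75 with 14 above 0. The family sum was 41300 in A and 7394 in B, a log2 ratio of -2.48 that came to -0.49 under total scaling. Most of the sum in A came from 2 unigenes. Unigene 32610, named for a receptor ligand-binding domain, had 21052 in A and 90.5 in B (log2 ratio -7.85, -8.18 to -7.56). Unigene 6724, a zinc finger and receptor domain protein, had 14306 and 165.5 (-6.43, -6.67 to -6.21).

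The same 2 proteins were each matched by a high-numbered unigene as well. For the ligand-binding protein, unigene 53348 aligned over 313 residues at 88.8% identity against 312 at 90.1%, and had 4 in A and 32 in B. For the zinc finger protein, unigene 41711 had 16 and 825.5 (5.60, 4.33 to 7.57). Each protein thus had 1 unigene read mainly in A and 1 read mainly in B, under each scaling. Their sums were still lower in B, at -7.41 and -3.85 on the log2 scale, or -5.43 and -1.86 under total scaling. Other receptors higher in B, all high-numbered, included unigene 71325 (128 and 1678), unigene 66100 (36 and 1262), unigene 76057 (78 and 1058) and unigene 84509 (16 and 893.5). A unigene named after nhr-40 had 8 in A and 12.5 in B, below the minimum.

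The homeobox members of *T. colubriformis* had a median log2 ratio of -1.50, which turned to 1.06 under total scaling. At least 4-fold higher were 4 of 16 tested, and 8 were at least 4-fold lower, beside 39.7% and 41.6% of all unigenes. The largest values were those of unigene 3316, with 29018 in A and 47 in B (-9.24, -9.72 to -8.86), and of unigenes 13515 (15882 and 41.5), 17514 (13410 and 31) and 16314 (8924 and 20), all low-numbered. In the other direction stood the high-numbered unigenes 79350, with 28 and 3526 (6.93, 5.93 to 8.29), and 69681, with 80 and 4748 (5.87, 5.26 to 6.60). Each of these kept its direction and its 4-fold size under both other scalings. The names do not say which homeobox genes these are.

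The cut-like homeobox protein, of a class that carries cut domains beside the homeodomain, had unigenes that broke the step in both directions. Its low-numbered unigene 6392 had 244 in A and 1467 in B (2.58, 2.22 to 2.98), the only low-numbered member higher in B. The high-numbered unigene 41222 had 144 and 4183, while the high-numbered unigene 66148, aligned over the same number of residues, had 100 and 21 (-2.20, -3.16 to -1.36), which was -0.26 under total scaling. Over 4 unigenes the sum was 508 and 5682, a log2 ratio of 3.48 (3.23 to 3.75), higher in B under each scaling. The high-numbered receptors 74627 (64 and 19) and 76465 (70 and 23) were also lower in B as deposited, with log2 ratios of -1.70 and -1.57 that turned to 0.23 and 0.38 under total scaling. In *A. galli* the 1 cut-like unigene had 204.8 and 208.1.

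**Figure D5:**
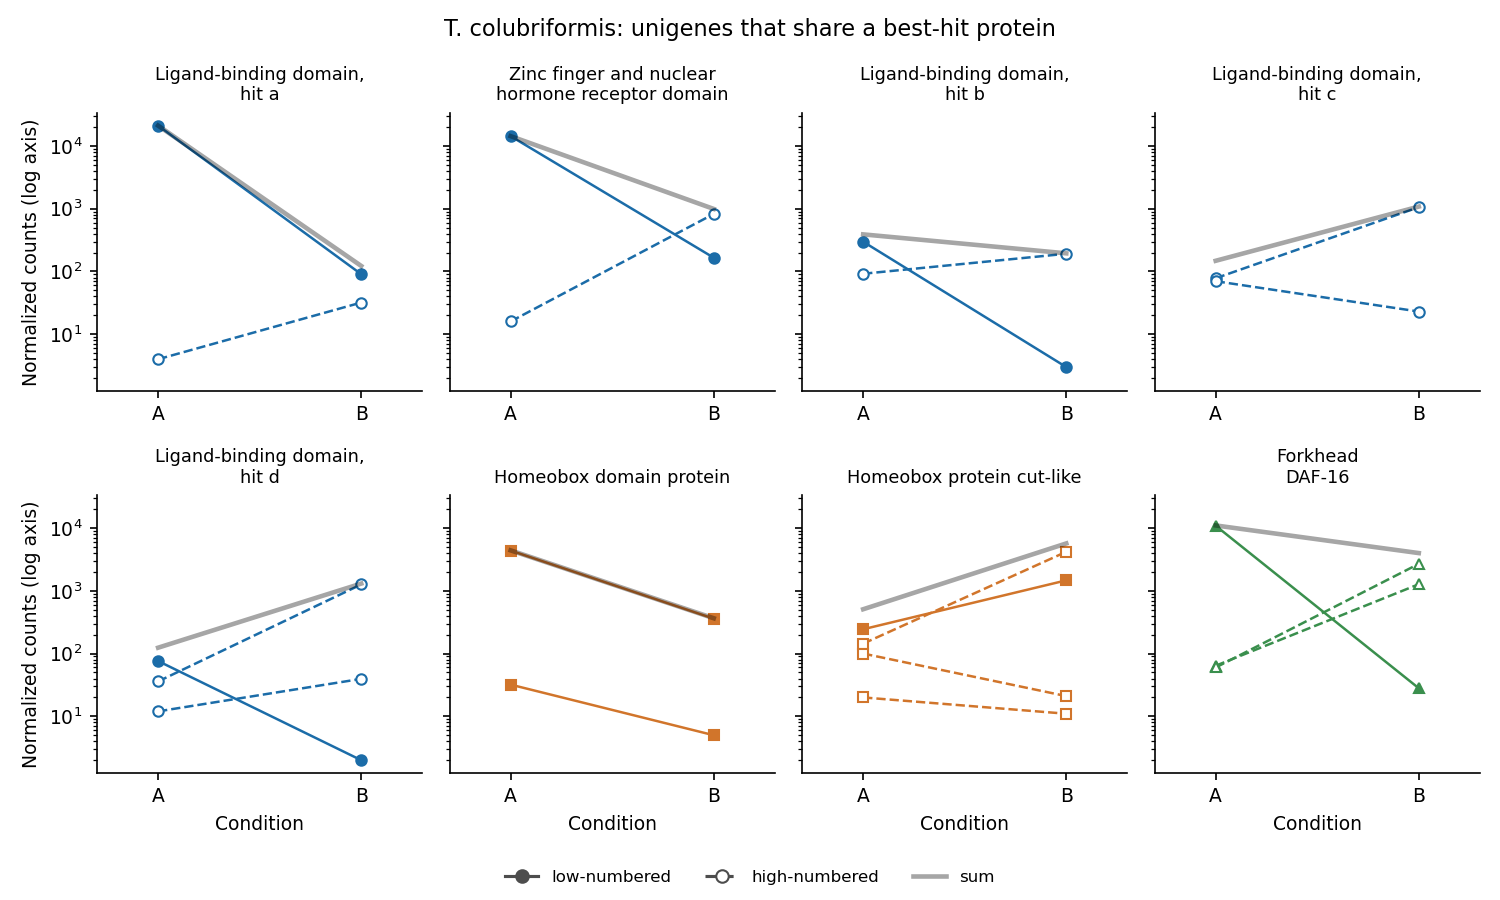
Normalized counts (log axis) in conditions A and B of the *T. colubriformis* unigenes that share a best-hit protein, for the 8 proteins of these families with more than 1 unigene; receptors are blue, homeobox orange and forkhead green. Solid lines are low-numbered and dashed lines high-numbered unigenes, and the grey line is their sum; low- and high-numbered lines cross in the DAF-16 panel (10864 to 28 against 60 to 2686), where the sum is lower in B as deposited and higher under total scaling.

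Of the 5 forkhead matches in *T. colubriformis*, 4 were named DAF-16. Unigene 1301 (low-numbered) had 10864 in A and 28 in B (-8.55, -9.19 to -8.07). The high-numbered unigenes 42686 and 79982, with the same best hit in the dog hookworm *Ancylostoma caninum*, had 64 and 1272 and 60 and 2686. These 3 unigenes aligned over 589, 604 and 403 residues at 78.3%, 76.5% and 82.6% identity. Their sum was 10988 in A and 3986 in B, a log2 ratio of -1.46 (-1.53 to -1.39) as deposited, which reversed to 0.53 under total scaling. The DAF-16 signal thus lay in different unigenes in the 2 conditions, and the direction of its total depended on the scaling. The other DAF-16 unigene, 86779, had its best hit in *Ancylostoma ceylanicum* and 20 and 233. The remaining match, unigene 70649 with 236 in A and 6336 in B (4.74, 4.38 to 5.14), was a forkhead-associated domain protein. That domain binds phosphorylated proteins and is a different fold from the forkhead DNA-binding domain, and without this unigene the family sum went from 11010 to 4219.

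Few product names occurred in both species. They were nhr-40, cut-like and the general names of a homeobox domain or a receptor ligand-binding domain, and none allowed a match of single genes. Where an *A. galli* member had the listed name of a *C. elegans* regulator, it was one of nhr-6, nhr-8, nhr-23, nhr-41, nhr-49, nhr-91, lin-39, egl-5, mab-5, vab-7, unc-4 or a ceh gene, and daf-16 was the only such name in *T. colubriformis*.

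The name rule left out receptors with other names. The annotation term steroid hormone receptor activity was carried by 117 *A. galli* unigenes, of which 73 were receptor members and 35 had an uncharacterized protein as best hit. The 41 tested unigenes with this term outside the rule had a median log2 ratio of -0.29 (0.09 under total scaling). Past 4-fold, 1 was higher and 1 lower, beside 22.7% and 9.76% of all unigenes and smaller shares of those with an ascaridid best hit. In *T. colubriformis* 44 unigenes carried the term and 8 of them were members. Of the 33 tested ones outside the rule, 11 (33.3%) were higher and 14 (42.4%) lower, near the 39.7% and 41.6% of all unigenes.

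Genes that work with these factors gave ratios in the same range in *A. galli*. Over all *A. galli* unigenes 22.7% were at least 4-fold higher in B and 9.76% lower. The ascaridid shares given with the receptors were smaller, with far fewer unigenes higher. Of 56 receptor cofactors, led by Mediator subunits, 1 was at least 4-fold higher in B and 2 lower, with a median of -0.38 (0.00 under total scaling). Mediator subunit 15 had 2448 in A and 1211 in B in its most abundant unigene. Of 75 tested unigenes for sterol handling, from which receptor ligands derive, 2 were higher and 5 lower, with a median of -0.57. A 17-beta-hydroxysteroid dehydrogenase type 6 unigene on the low side had 5521 and 1085, and one on the high side 3578 and 3503. The list of insulin signalling and fork head names had 36 tested unigenes with a median of -0.91, lower in B under each scaling, with 0 higher and 3 lower, and included akt-1, a kinase that acts on DAF-16 in *C. elegans* (2425 and 657 in the low-numbered unigene 43329, 1268 and 993 in the high-numbered unigene 158499, where the ratio turned from -0.35 to 0.03 under total scaling). In *T. colubriformis* these 3 lists had 1, 7 and 5 tested unigenes with medians of -3.76, -2.50 and -2.69. The cofactor unigene was low-numbered. In the other lists low-numbered unigenes had medians of -5.01 and -6.52, and high-numbered ones 3.39 and 2.29.

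RNA of other origin and of the germ line moved between the *A. galli* libraries. Unigenes named major sperm protein were lower in B in 154 of 158 tested cases and summed to 5077000 in A and 1523000 in B, and 32 unigenes of body wall muscle, such as tropomyosin and paramyosin, summed to 422100 and 301100. Unigenes with bacterial or chloroplast protein names were higher in B in 127 of 137 tested cases, with sums of 7480 and 17550. In bulk RNA, fewer cells of a type and less RNA per cell cannot be told apart, and the part of these shifts in the members' ratios was not tested. In *T. colubriformis* the same 3 lists summed to 44030 and 12520, 10380 and 962.5, and 31690 and 10600. Most of this muscle sum in A came from unigene 3937, named cofilin/tropomyosin-type actin-binding protein (10132 in A and 52.5 in B). Unigenes named tropomyosin went the other way (76 and 790 in unigene 55617, 4 and 70 in unigene 35629). A myosin heavy chain unigene had 164 and 41. The lower muscle sum in B thus rested on unigene 3937. The sperm and the bacterial and chloroplast sums, with log2 ratios of -1.81 and -1.58, turn above 0 under the total scaling shift of 1.99, and the medians of these lists were 1.73 and 1.72.

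In the authors' deposited table the adjusted p-value was 1 for all 260 members. The smallest unadjusted p-value given there was 0.0888, for an *A. galli* receptor. Of the *A. galli* members, 8 receptors, 7 homeobox and 2 forkhead unigenes were marked up in the authors' deposited table and 4, 3 and 1 were marked down. For *T. colubriformis*, the authors' deposited table marked 9, 4 and 4 members up and 6, 8 and 1 down. The shares of all unigenes with these marks are not given here. By the size rule used above, 22.7% of all tested *A. galli* unigenes were higher in B and 9.76% lower. In *T. colubriformis* these shares were 39.7% and 41.6%.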

How the data were processed

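Whole-worm RNA of 2 nematode species was sequenced, with 1 library per group (4 in all). Per the file headers, the authors' normalized counts of conditions A and B stand beside p-values, raw and adjusted, a mark of direction, and the best-hit protein. The authors' search also gave its percent identity and aligned length. The submitters' processing notes name DESeq, without a version; of the aligner and assembly, no settings are known from the labels. The tables list only unigenes with reads in both conditions. A stray line that names bowtie2, with 1 read in each condition, was dropped from the *A. galli* table.

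The groups planned as extract and water could not be tied to A and B. The deposited values were not whole counts, so no count model was used. Whole reads were recovered from the smallest step (all values up to 200 whole within 0.1 read). Counting intervals (95%, Clopper-Pearson) used reads divided by 2, since 63.5% to 75.2% of counts were even. Ratios used a pseudocount of 1. Members were named by family and species as the 10 with the largest mean values and the 5 highest and 5 lowest ratios with at least 100 normalized counts (1 per product name), product names in both species, and listed *C. elegans* regulators; members past 4-fold and unigenes that share a best hit were added after their values were seen, as was the break in the unigene numbers. Members and lists were chosen with earlier results of these data known. Near-identical genes may share reads, and the authors' counting of them is not known. The size rule was checked on simulated counts. Alternatives were total scaling, trimmed mean of M-values (30% and 5% trimmed), a pseudocount of 5, a minimum of 100 or none, 1 unigene per product name and same-clade hits. Python 3.11.15, pandas 2.3.3, numpy 2.4.6, scipy 1.17.1 and matplotlib 3.10.9 were used. No sequences were used here.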

Additional observations from a re-analysis of the deposited data

How the results depend on the processing

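Counts are given in the order receptor, homeobox, forkhead. Shares of all unigenes are given above for each scaling, and for each side of the break as deposited. They are not given for the other settings, so counts under those settings describe the members alone. In *A. galli*, total scaling moved the receptor and homeobox medians to 0.044 and -0.029, the receptors at least 4-fold higher to 10, and those lower to 1 receptor and 0 forkhead unigenes. A pseudocount of 5 left 2 receptors higher and 0 forkhead unigenes lower, and with no minimum 2 forkhead unigenes were higher. A minimum of 100 left 0 higher in each family and 0 lower among homeobox and forkhead members. With 1 unigene per product name, 0 receptors and 0 forkhead unigenes were higher and 1 receptor lower. Summed per best-hit protein, 2 receptors were higher and 0 lower. Low-numbered unigenes alone gave medians of -0.85 and -0.74 for receptors and homeobox, with 0 higher in each family. High-numbered ones gave 0.17, 0.023 and 0.19, with 0 lower in each.

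In *T. colubriformis*, total scaling gave 15 higher receptors, 7 higher and 5 lower homeobox members and a forkhead median of 6.26, and the trimmed mean of M-values gave 7 higher homeobox members. With 1 unigene per product name the receptor median was -7.14 over 2 unigenes (0 higher, 2 lower), homeobox had 1 higher and 3 lower, and the forkhead median reversed to -1.90 over 2 unigenes (1 higher). Per best-hit protein, 3 receptors were lower, 2 forkhead proteins higher and 0 lower. Low-numbered unigenes alone gave a receptor median of -6.22 and a forkhead median reversed to -8.55, from 1 unigene, with 0, 1 and 0 higher, and high-numbered ones 0, 1 and 0 lower. Fewer unigenes enter several of these settings; beyond that the cause was not tested. Same-clade hits alone moved 0 of 18 family medians and counts beyond the 95% binomial order interval of the median, for a median, or 1.5-fold, for a count. All 46 *T. colubriformis* members and all 25 *A. galli* forkhead members had same-clade hits, so this setting could not move their results. Of 134 ratios of single named members, total scaling moved 64 and the trimmed mean of M-values 23 beyond their counting intervals, and a pseudocount of 5 moved 0. The summed and number-based settings were chosen after seeing the data. With 1 library per condition, nothing here separates treatment from the library, and intervals cover counting error only. No paired analysis was possible because each group holds 1 library.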

Other observations

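Other regulators outside the 3 families were described by the same size rule. In *A. galli*, names outside the rule that hold receptor terms (21 unigenes) had a median log2 ratio of -0.09. Of these, 2 were at least 4-fold higher in B and 2 lower, beside 22.7% and 9.76% of all unigenes and smaller shares of those with an ascaridid best hit. Not all of these names stand for receptors. The largest values were those of nuclear receptor-binding protein (1859 in A and 1487 in B in the low-numbered unigene 24173). The list also held nuclear receptor corepressor 1 and a *Drosophila* seven-up counterpart, with 916 in A and 859 in B in the low-numbered unigene 8118. Names of other DNA-binding regulators, such as SMAD, GATA and Krueppel, had a median of -0.55 over 61 tested unigenes, with 2 higher and 5 lower. The most abundant of these was named for ankyrin repeat, SAM and basic leucine zipper domains, so not all need be DNA-binding regulators. General transcription names had a median of -0.62 over 107, with 1 higher and 2 lower. This list held initiation factors and also RNA polymerase subunits, such as an RNA polymerase III subunit (unigene 48255). Homeodomain-related names outside the rule, which were led by LIM domain proteins of muscle and the cytoskeleton, had a median of -0.47 over 39, with 0 higher and 2 lower; as there is 1 library per condition, no test was run. In *T. colubriformis* the same 4 lists had 1, 40, 17 and 11 tested unigenes with medians of 2.12, -1.67, 2.85 and -4.15. Apart from the first list, low-numbered unigenes had medians of -5.51, -4.84 and -6.8, and high-numbered ones 2.96, 4.08 and 4.26. The 1 tested unigene of the first list, 70428, was named nematode fatty acid retinoid binding protein and not a receptor.

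Markers of tissues in *A. galli* had median log2 ratios of -1.78 for sperm, -0.57 for yolk and eggshell, -0.42 for muscle, -0.13 for hypodermis and cuticle, 1.54 for intestine, -0.54 for neurons and 2.03 for bacterial and plant names. The intestinal list split by number, with -0.38 among low-numbered and 1.99 among high-numbered unigenes, and its sum was lower in B (133400 in A and 83910 in B). It was matched by name and also held methionine aminopeptidase 2. The cuticle sum was higher in B (392500 in A and 500600 in B), and the cuticle median was 0.25 under total scaling. Of the tested yolk and eggshell unigenes, 14 were above 0, such as vitellogenin-6 unigene 87385 (309 and 993), and 22 below. In *T. colubriformis* the medians were 1.73 for sperm, 0.69 for muscle, 1.38 for cuticle, 3.19 for intestine, -5.24 for neurons and 1.72 for bacterial and plant names, and the yolk list had 1 unigene, below the minimum. In each tested list low-numbered unigenes had a negative median and high-numbered ones a positive median. These were -8.47 and 4.35 for intestine, -7.51 and 1.90 for neurons and -7.83 and 2.39 for sperm. Each list's sum was lower in B as deposited, as for intestine (39740 in A and 14210 in B). The muscle list of this worm had 4 tested unigenes, among them the cofilin/tropomyosin-type unigene 3937.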
